A study of Arabidopsis thaliana with 38 samples.

Results

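RNAi-C1 is an *Arabidopsis* line in which a hairpin RNA was made against the heat shock protein HSP90, and here its transcripts were set directly against those of RNAi-A2 and RNAi-B1, lines of the same experiment made with other HSP90 hairpins. The samples were chosen by the line in their titles: 3 of RNAi-C1, 2 of RNAi-A2 and 3 of RNAi-B1, which are 8 of the 35 biological samples of the series. All 3 lines are Col-0 plants that carry a hairpin behind the 35S promoter, with a GFP stretch between its antisense and sense arms. The hairpin of RNAi-C1 holds a part of the *HSP90.2* coding sequence, and those of RNAi-A2 and RNAi-B1 hold different parts of the *HSP90.1* coding sequence. Every sample is a pool of 10 seedlings aged 14 days, of which the aerial tissue was taken, grown on GM medium in long days, and each was hybridised to an ATH-1 array. Each line descends from a single transformant with an insertion at a single locus, so that the effect of a hairpin and that of its insertion site cannot be told apart. The insertion of RNAi-A2 lies 3′ of AT2G04870 and that of RNAi-B1 lies 5′ of AT1G42980, whereas the site in RNAi-C1 was not determined. Control-1 and Control-3, made with the same vector without HSP90 sequence, have 3 samples each in this experiment. They entered none of the comparisons reported here, and their levels are given beside some genes as a description.

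HSP90 is a chaperone that holds many signalling proteins, among them kinases, hormone receptors and immune receptors, in a form that can be activated. Plants have several cytosolic HSP90 proteins, and they are very similar in sequence. A hairpin RNA is cut into small RNAs that direct the cleavage of matching transcripts, so that hairpins from different stretches may reach the cytosolic HSP90 transcripts unequally. When HSP90 is limiting, heat shock factors are released and transcripts of other chaperones rise. In the probe table used here no probe set was named for a cytosolic HSP90 gene alone, so the targeted transcripts are not analysed here and no check of how far each line was reduced is given.

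The array medians ranged from 181 to 202 signal units. Precision is limited by having only 2 or 3 arrays of a line. On the log2 scale, samples of the same line had Pearson correlations of 0.977 to 0.989 across the 15511 probe sets that passed the signal filter. RNAi-A2 and RNAi-B1 samples correlated at 0.979 to 0.985 with each other. RNAi-C1 samples correlated at 0.957 to 0.973 with the samples of RNAi-A2 and RNAi-B1, below every pair of samples among those lines. Markers of the labelled aerial tissue were present at high level. *PRK*, a Calvin cycle kinase of green tissue, had 15218, 15438 and 15660 signal units in RNAi-C1, against 14301 and 17298 in RNAi-A2 and 15728, 14855 and 14359 in RNAi-B1. The root hair expansins *EXPA7* and *EXPA18* lay between 5.98 and 139 in all 8 samples, whereas *PYK10*, listed as a root marker too, lay between 2021 and 3376.

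RNAi-C1 differed from the other lines at many more probe sets than those lines differed from each other. Signals were compared as log2(signal + 16). On this scale 1 unit is a 2-fold change for bright genes and more than that for dim ones. All p-values are adjusted over the 15511 probe sets tested. A probe set with an adjusted p under 0.05 is named as called. In RNAi-C1 against the mean of RNAi-A2 and RNAi-B1, 696 probe sets were higher (4.49%) and 870 were lower (5.61%), 1566 in all (10.1%), and 4342 passed an unadjusted p under 0.05. Most of these differences were small. The median size over the called probe sets was 0.55 log2 units, and 39 of those higher and 130 of those lower differed by at least 1 log2 unit. In pooled tissue, fewer cells of a type and less RNA per cell cannot be told apart. Against RNAi-A2 alone RNAi-C1 was higher at 392 (2.53%) and lower at 521 (3.36%), and against RNAi-B1 alone it was higher at 481 (3.1%) and lower at 663 (4.27%). RNAi-B1 was higher than RNAi-A2 at only 34 probe sets (0.219%) and lower at 11 (0.0709%), with 1454 at an unadjusted p under 0.05.

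The number called depended on single samples. It was 877, 889 and 871 without RNAi-C1 1, 2 and 3, 920 and 870 without RNAi-A2 1 and 2, 936 and 868 without RNAi-B1 2 and 3, and 1548 without RNAi-B1 1. The scaling of the arrays moved the balance of the directions. The split of 696 higher and 870 lower became 579 and 937 after quantile normalization and 407 and 1003 after centring each array on its median, so that RNAi-C1 had more lower than higher calls under each scaling. The median over all probe sets was 0.05 as scaled by the authors, 0.02 after quantile normalization and -0.01 after median centring.

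The comparisons with RNAi-A2 and with RNAi-B1 share the RNAi-C1 samples, so their overlap is a description. Of the probe sets called against both, 176 were higher in RNAi-C1 (1.13%) and 381 were lower (2.46%), while 3 were called in opposite directions. Of the 1566 called against the mean of the lines, 12 had opposite signs against the separate lines and 35 were also called between RNAi-B1 and RNAi-A2. All 3 RNAi-C1 samples lay above all 5 others at 1701 probe sets (11%) and below them at 1525 (9.83%), and 1465 of the 1566 called were among these. A single gene could be given to 377 of the called probe sets that were higher and to 383 of those that were lower, and only these are named below.

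**Figure D1:**
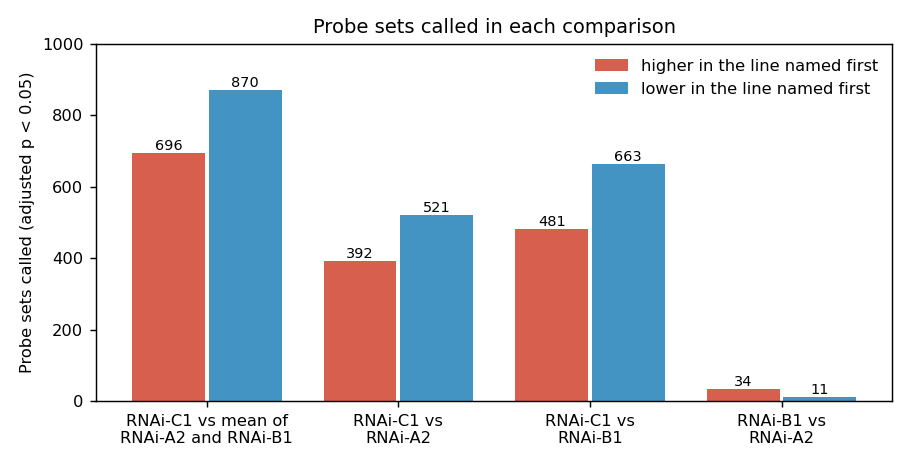
Probe sets called at an adjusted p under 0.05 in each comparison (bars, number of probe sets of 15511 tested), higher or lower in the line named first. RNAi-C1 was called different at 1566 probe sets against the mean of RNAi-A2 and RNAi-B1, and RNAi-B1 at 45 against RNAi-A2.

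The leading gene among those higher in RNAi-C1 was *SAG29*, also called *SWEET15*, a sugar transporter of the plasma membrane that is induced in senescing leaves. It had 220, 228 and 244 signal units in RNAi-C1, against 20.6 and 56.7 in RNAi-A2 and 16.3, 38.0 and 21.8 in RNAi-B1. The difference of 2.43 ± 0.24 log2 units (SE, adjusted p = 0.000875) held against each line. AT4G23680, whose function is not annotated in the sources used here, had 1560, 1518 and 1485 in RNAi-C1, against 332 and 371 in RNAi-A2 and 345, 517 and 599 in RNAi-B1. The difference was 1.86 ± 0.16 (adjusted p = 0.000514). AT4G10270, annotated to the response to wounding, had 1230, 892 and 965 in RNAi-C1, against 318 and 408 in RNAi-A2 and 540, 358 and 530 in RNAi-B1. It was higher by 1.28 ± 0.17 (adjusted p = 0.00373). *BGLU45*, a beta-glucosidase, had 197, 141 and 191 in RNAi-C1, against 59.6 and 61.4 in RNAi-A2 and 67.4, 73.7 and 59.8 in RNAi-B1. The 5 samples of the other lines were close together, and it was higher by 1.26 ± 0.12 (adjusted p = 0.000816). Both *SAG29* and *BGLU45* passed the signal filter through their RNAi-C1 means alone. AT3G44450 had 412, 313 and 313 in RNAi-C1, against 143 and 150 in RNAi-A2 and 167, 143 and 164 in RNAi-B1, a difference of 1.1 ± 0.11 (adjusted p = 0.00118).

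Of the other 10 genes with the largest increases, 4 were pseudogenes in the gene table, AT1G43590, AT2G04460, AT3G42330 and AT3G42300. AT1G43590 had 196, 286 and 224 in RNAi-C1, against 55.0 and 70.4 in RNAi-A2 and 24.8, 49.3 and 43.3 in RNAi-B1 (difference 1.93 ± 0.18, adjusted p = 0.000762). AT2G04460 had 659, 754 and 580 in RNAi-C1, against 227 and 186 in RNAi-A2 and 374, 236 and 279 in RNAi-B1 (difference 1.37 ± 0.16, adjusted p = 0.00189). The lack of overlap at both genes was set by the way they were chosen, and AT1G43590 passed the signal filter through its RNAi-C1 mean alone. The dynamin-like gene *DL1D* (difference 1.2, adjusted p = 0.0124) was called against RNAi-B1 (1.81, adjusted p = 0.00464) and had a difference of 0.60 against RNAi-A2 (adjusted p = 0.236), while RNAi-B1 against RNAi-A2 was not called (-1.21, adjusted p = 0.175). AT3G18900 was higher by 1.42 (adjusted p = 0.00867). The last 6 were less certain. AT3G42330 and AT3G42300, AT1G31450, which encodes a pepsin-type protease, AT1G18830, also called *SEC31A*, AT2G07724 and AT1G12010 were higher by 1.08 to 1.49 with adjusted p-values of 0.0184 to 0.0496. Their calls were lost in 2 to 7 of the 8 fits that each left out a sample, with adjusted p-values of up to 0.139.

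Among named genes the 3 largest decreases in RNAi-C1 were those of AT4G16260, AT5G51890 and *CHI*. AT4G16260, which encodes a glycosyl hydrolase and is in the list of salicylic acid and pathogenesis-related genes, had 126, 134 and 134 in RNAi-C1, against 800 and 969 in RNAi-A2 and 301, 424 and 467 in RNAi-B1. RNAi-C1 was the lowest line and RNAi-A2 the highest, with a difference of -2.04 ± 0.14 (adjusted p = 0.0002). *CHI*, a chitinase, an enzyme that cuts the chitin of fungal cell walls, had 368, 204 and 255 in RNAi-C1, against 670 and 689 in RNAi-A2 and 1330, 1302 and 1457 in RNAi-B1. Here RNAi-B1 was the highest line, and the difference was -1.79 ± 0.16 (adjusted p = 0.000734). The peroxidase gene AT5G51890 had 269, 236 and 350 in RNAi-C1, against 1225 and 1271 in RNAi-A2 and 1154, 1069 and 1060 in RNAi-B1. Both other lines stood at nearly the same level, and RNAi-C1 was lower by a difference of -1.99 ± 0.12 (adjusted p = 0.00014).

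A pair of genes annotated to lipid metabolism was lower as well. AT1G33811, which encodes a carboxylic ester hydrolase, had 554, 443 and 579 in RNAi-C1, against 1516 and 1595 in RNAi-A2 and 1545, 1743 and 1613 in RNAi-B1 (difference -1.58 ± 0.11, adjusted p = 0.000163). AT1G29660, of the same annotation, had 724, 749 and 770 in RNAi-C1, against 1776 and 1959 in RNAi-A2 and 1845, 2210 and 2206 in RNAi-B1 (difference -1.38 ± 0.09, adjusted p = 0.000163). The samples of each line were close together at both genes. AT4G34150, annotated to the response to cold, had 1406, 1414 and 1281 in RNAi-C1, against 3396 and 4402 in RNAi-A2 and 3585, 3309 and 3529 in RNAi-B1. It was lower by a difference of -1.41 ± 0.10 (adjusted p = 0.000234). The calcium-binding protein gene AT2G41090 had 944, 1019 and 978 in RNAi-C1, against 2056 and 1839 in RNAi-A2 and 3805, 3148 and 3259 in RNAi-B1. It was lower in RNAi-C1 than in both lines and also differed between them (RNAi-B1 against RNAi-A2, 0.80 ± 0.12, adjusted p = 0.0368).

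AT1G15010, of no annotated function, had the smallest SE among these genes. It had 215, 228 and 226 in RNAi-C1, against 772 and 783 in RNAi-A2 and 633, 638 and 719 in RNAi-B1, a difference of -1.62 ± 0.08 (adjusted p = 3.47e-05). AT1G04800 (-1.47, adjusted p = 0.000369) and AT5G52760, which is annotated to metal ion transport (-1.61, adjusted p = 0.00122), were lower too. The subtilase gene AT5G58840 was dim in RNAi-C1, with 6.33, 17.9 and 15.3, against 104 and 38.2 in RNAi-A2 and 123, 70.4 and 119 in RNAi-B1 (difference -1.76 ± 0.28, adjusted p = 0.00805). Only its RNAi-B1 mean passed the signal filter. The remaining 4 genes, the polygalacturonase gene AT5G41870, AT5G40020, annotated to the response to other organisms, AT1G10340 and the cysteine-type peptidase gene AT3G22260, were lower by differences of -1.46 to -1.60 with adjusted p-values of 0.0327 to 0.0431. These calls were lost in 5 or 6 of the 8 fits without a sample, with adjusted p-values of up to 0.111.

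**Figure D2:**
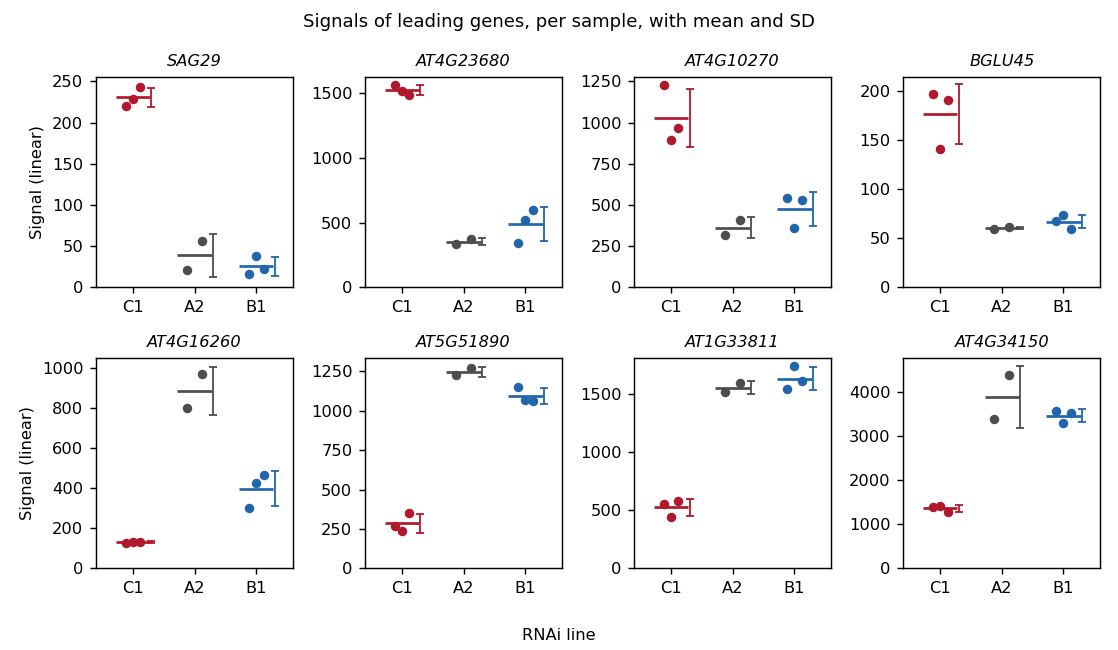
Signal (linear units) of 8 of the genes with the largest changes in RNAi-C1, in each sample of RNAi-C1 (C1), RNAi-A2 (A2) and RNAi-B1 (B1). Points are samples, horizontal lines are means and bars are SD. *SAG29*, AT4G23680, AT4G10270 and *BGLU45* lie above and AT4G16260, AT5G51890, AT1G33811 and AT4G34150 below all samples of the other lines in RNAi-C1. This separation was a condition for choosing them.

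The control lines stood on different sides for different genes, which is described here without a test. At AT5G51890 the controls averaged 1007 ± 35.7 in Control-1 and 1100 ± 50.1 (SD, n = 3 each) in Control-3, at the level of RNAi-A2 and RNAi-B1 and far above RNAi-C1. AT1G33811 (1549 ± 84.3 and 1577 ± 91.5 in Control-1 and Control-3) and AT1G29660 (2136 ± 243 and 1953 ± 68.3) showed the same order. At *CHI* the reverse was seen, with controls at 189 ± 29 and 183 ± 36.1, just below RNAi-C1 and far below RNAi-A2 and RNAi-B1. AT3G44450 was at 305 ± 39.7 and 311 ± 34.5 in the controls, near the lower samples of RNAi-C1. *SAG29* averaged 30.4 in Control-1 and 38.8 in Control-3, within the range of RNAi-A2 and RNAi-B1. Its signal ran from 6.14 to 444 over the 30 arrays of other lines, so that the highest of them lay above RNAi-C1. Over the 696 probe sets that were higher in RNAi-C1, the mean of the 2 control lines lay nearer to RNAi-C1 than to the mean of RNAi-A2 and RNAi-B1 at 29.2%, and over the 870 that were lower it did at 42.8%, against 36.9% of all 15511 tested. The share for the higher probe sets moved with the setting and was 37.9% where no probe set was filtered out.

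Gene lists for stress, hormone, growth and tissue functions held 603 entries in 24 lists, of which 106 genes in 22 lists had a named probe set that was tested. Of these, 8 were called higher and 16 lower in RNAi-C1, beside 4.49% higher and 5.61% lower, or 10.1% in all, of all probe sets. The lists were written with earlier results of these data known. A share of calls above that of all probe sets may therefore be set in part by the choice of genes. Among genes of abscisic acid and water deprivation, which let plants close stomata and protect cells when water is short, 4 of 10 were lower and 1 was higher, with a median difference of -0.41, against 0.05 over all probe sets tested. *PUB19*, a ubiquitin ligase that dampens abscisic acid responses, had 621, 577 and 571 in RNAi-C1, against 1692 and 1794 in RNAi-A2 and 1001, 1110 and 1017 in RNAi-B1. All 3 lines were apart, with a difference of -1.17 ± 0.08 (adjusted p = 0.000173) for RNAi-C1 and of -0.73 ± 0.10 (adjusted p = 0.0266) for RNAi-B1 against RNAi-A2. The controls were lower still, at 422 ± 2.62 in Control-1 and 417 ± 24.6 in Control-3.

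AT5G50360, another member of this list, had 68.4, 135 and 88.3 in RNAi-C1, against 309 and 309 in RNAi-A2 and 232, 259 and 189 in RNAi-B1 (difference -1.35 ± 0.19, adjusted p = 0.00411). Its controls were at 29.2 ± 15.6 and 27.4 ± 15.1, below all 3 RNAi lines. The dehydrin *LTI30*, a protein that protects cells in cold and drought, had 1050, 1062 and 1022 in RNAi-C1, against 2046 and 1952 in RNAi-A2 and 2083, 2140 and 2207 in RNAi-B1 (difference -0.98 ± 0.07, adjusted p = 0.000262). Its spread within each line was small. The member of the list that was higher was *SAG29*, described above, which is also in the senescence list. It passed the signal filter through its RNAi-C1 mean alone.

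Genes that loosen or cut the cell wall during growth had decreases too, with 4 of 13 expansins, XTH and endoglucanases lower, none higher and a median of -0.27. Of all probe sets, 5.61% were lower and 4.49% higher. The endoglucanase *GH9B13* had 361, 355 and 427 in RNAi-C1, against 796 and 813 in RNAi-A2 and 875, 948 and 886 in RNAi-B1 (difference -1.13 ± 0.09, adjusted p = 0.000363). The expansin *EXPA8* had 331, 382 and 322 in RNAi-C1, against 573 and 530 in RNAi-A2 and 594, 578 and 638 in RNAi-B1 (difference -0.72 ± 0.09, adjusted p = 0.00266). At both genes the controls were higher than all 3 lines, at 1101 ± 78.2 and 1320 ± 56.2 for *GH9B13* and at 894 ± 35.2 and 1227 ± 31 for *EXPA8*. The expansin-like gene *EXLA1* was lower by a difference of -0.66 (adjusted p = 0.00452). *EXLB1* was lower by -0.59 (adjusted p = 0.0142), but not without RNAi-C1 2 or RNAi-C1 3, where its adjusted p rose to as much as 0.0541.

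The auxin genes called were enzymes that conjugate the hormone, and they moved in both directions. *IAGLU*, a UDP-glycosyltransferase that links glucose to auxin, had 694, 756 and 818 in RNAi-C1, against 295 and 268 in RNAi-A2 and 444, 446 and 491 in RNAi-B1 (difference 1.03 ± 0.09, adjusted p = 0.000485). *WES1* and *GH3.3*, which link auxin to amino acids, were lower. *WES1* had 368, 321 and 306 in RNAi-C1, against 686 and 627 in RNAi-A2 and 482, 479 and 438 in RNAi-B1 (difference -0.72 ± 0.09, adjusted p = 0.00295). The level of RNAi-C1 was near that of the controls at *IAGLU* and *WES1*, with 760 ± 134 and 759 ± 14.3 for *IAGLU* and 290 ± 5.94 and 326 ± 53.4 for *WES1*. *GH3.3* had 202, 197 and 151 in RNAi-C1, against 288 and 294 in RNAi-A2 and 362, 333 and 275 in RNAi-B1 (difference -0.70 ± 0.12, adjusted p = 0.0125), and its controls, at 92.3 ± 21.1 and 119 ± 31.2, averaged below all 3 lines. Of the 5 auxin genes tested, 1 was higher and 2 were lower, with a median of -0.36, beside 4.49% higher and 5.61% lower of all probe sets.

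In the list of salicylic acid and pathogenesis-related genes, 2 of 5 were lower, AT4G16260 and *CHI*, with a median of -0.49. In the jasmonate list 2 of 5 were lower, both plant defensins, which are antifungal peptides, with a median of -0.34. Both counts stand beside 5.61% lower of all probe sets. *PDF1.2b* had 1554, 1554 and 1477 in RNAi-C1, against 3256 and 3590 in RNAi-A2 and 2006, 2141 and 1948 in RNAi-B1 (difference -0.78 ± 0.08, adjusted p = 0.0011). *PDF1.2* was lower than in RNAi-A2 but not than in RNAi-B1, with 751, 738 and 763 in RNAi-C1, against 1764 and 1545 in RNAi-A2 and 816, 681 and 782 in RNAi-B1. Its difference was -1.12 ± 0.11 (adjusted p = 0.00188) against RNAi-A2 and -0.01 ± 0.10 (adjusted p = 0.95) against RNAi-B1. The probe set of *PDF1.2b* may also match transcripts of its close relatives. The controls had more of both transcripts than RNAi-C1, at 4758 ± 880 and 3854 ± 314 for *PDF1.2b* and at 1947 ± 174 and 1519 ± 51.0 for *PDF1.2*.

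**Figure D3:**
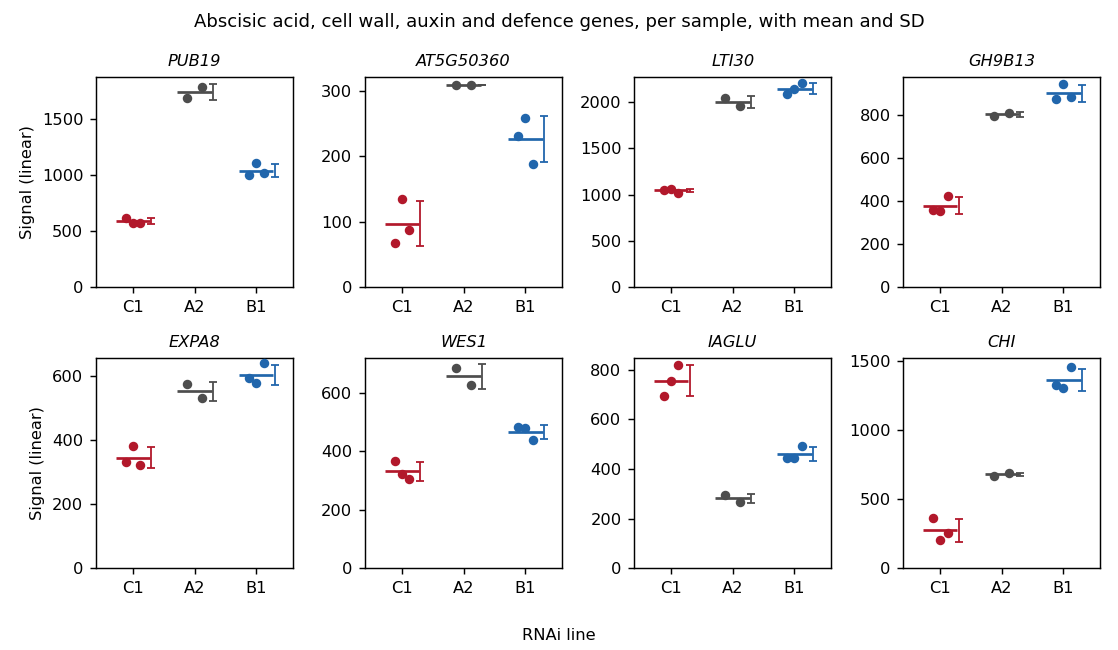
Signal (linear units) of genes of abscisic acid responses (*PUB19*, AT5G50360, *LTI30*), the cell wall (*GH9B13*, *EXPA8*), auxin (*WES1*, *IAGLU*) and defence (*CHI*) in each sample of RNAi-C1 (C1), RNAi-A2 (A2) and RNAi-B1 (B1), with the mean (line) and SD (bar). All but *IAGLU* are lowest in RNAi-C1, and the order of RNAi-A2 and RNAi-B1 differs between genes.

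Heat-stress genes respond to a lack of HSP90. Of 9 tested, 1 was higher and none was lower in RNAi-C1, beside 4.49% higher and 5.61% lower of all probe sets, and the median was 0.26. The gene called, AT2G29500, had 251, 243 and 244 in RNAi-C1, against 203 and 156 in RNAi-A2 and 199, 167 and 196 in RNAi-B1 (difference 0.40 ± 0.11, adjusted p = 0.0483). Among the co-chaperones and HSP70 genes 1 of 7 was higher, with a median of 0.06. This was AT3G09440, with 2502, 3061 and 2849 in RNAi-C1, against 1913 and 2022 in RNAi-A2 and 2366, 2517 and 2092 in RNAi-B1 (difference 0.39 ± 0.10, adjusted p = 0.0476). Its highest RNAi-B1 sample exceeded the lowest RNAi-C1 sample. Both calls were lost in 7 of the 8 fits without a sample, with adjusted p-values of up to 0.137, and neither gene was called against RNAi-A2 or RNAi-B1 alone. *Hop2*, a co-chaperone that joins HSP70 to HSP90, had a difference of -0.15 (adjusted p = 0.512), and the cyclophilin 40 gene *SQN* one of 0.19 (adjusted p = 0.505).

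Other lists held single calls, beside 4.49% higher and 5.61% lower of all probe sets. In the iron list, 1 of 4 was higher, AT1G47400, with 1052, 1033 and 923 in RNAi-C1, against 576 and 633 in RNAi-A2 and 756, 591 and 639 in RNAi-B1 (difference 0.65 ± 0.10, adjusted p = 0.00755). The iron regulator *BHLH101* had a difference of -0.35 against the mean of the lines (adjusted p = 0.0506) and was lower against RNAi-A2 (-0.51, adjusted p = 0.0398). The only phosphate-starvation gene tested, AT5G09570, was higher by 0.42 (adjusted p = 0.0148), with differences of 0.69 against RNAi-A2 (adjusted p = 0.0062) and 0.14 against RNAi-B1 (adjusted p = 0.321). Of the 2 RNA silencing genes, *AGO7*, an Argonaute protein that works with a single microRNA, was higher by 0.61 (adjusted p = 0.0377), a call lost in 6 of 8 fits without a sample (adjusted p of up to 0.115). *SE*, needed to process microRNAs, had a difference of 0.13 (adjusted p = 0.288). Of 6 endoplasmic reticulum stress genes, 1 was lower, the transcription factor *BZIP60* (-0.37, adjusted p = 0.017), lost in 3 of 8 fits without a sample (adjusted p of up to 0.059). Of 3 senescence genes *SAG29* alone was called, and the regulators *WRKY53* and *WRKY6* had differences of -0.29 (adjusted p = 0.18) and -0.14 (adjusted p = 0.461).

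No member was called in the lists of phenylpropanoids (7 tested, median -0.02), glucosinolates (3, median 0.09), flowering (4, median 0.34), light harvesting and photosystems (8, median 0.13), cell cycle and histones (7, median -0.01) and leaf markers (2, median 0.10). The same held for the brassinosteroid and gibberellin gene *GID1A* (-0.11, adjusted p = 0.556) and the clock gene *GI* (-0.04, adjusted p = 0.842), each alone in its list. A phenylpropanoid gene, AT3G13610, also called *F6'H1*, differed from RNAi-B1 only, with 17.7, 69.3 and 11.1 in RNAi-C1, against 19.1 and 92.3 in RNAi-A2 and 169, 219 and 309 in RNAi-B1. Its difference was -2.50 ± 0.51 (adjusted p = 0.0267) against RNAi-B1 and -0.53 ± 0.57 (adjusted p = 0.635) against RNAi-A2. AT3G13610 passed the signal filter through its RNAi-B1 mean alone. All 4 flowering genes, among them *AGL19* (0.74, adjusted p = 0.166) and *AGL24* (0.23, adjusted p = 0.132), had positive differences short of the threshold. Of 3 root markers, *PYK10* was called (below), and *EXPA7* and *EXPA18* had differences of 0.82 (adjusted p = 0.239) and 0.68 (adjusted p = 0.177).

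**Figure D4:**
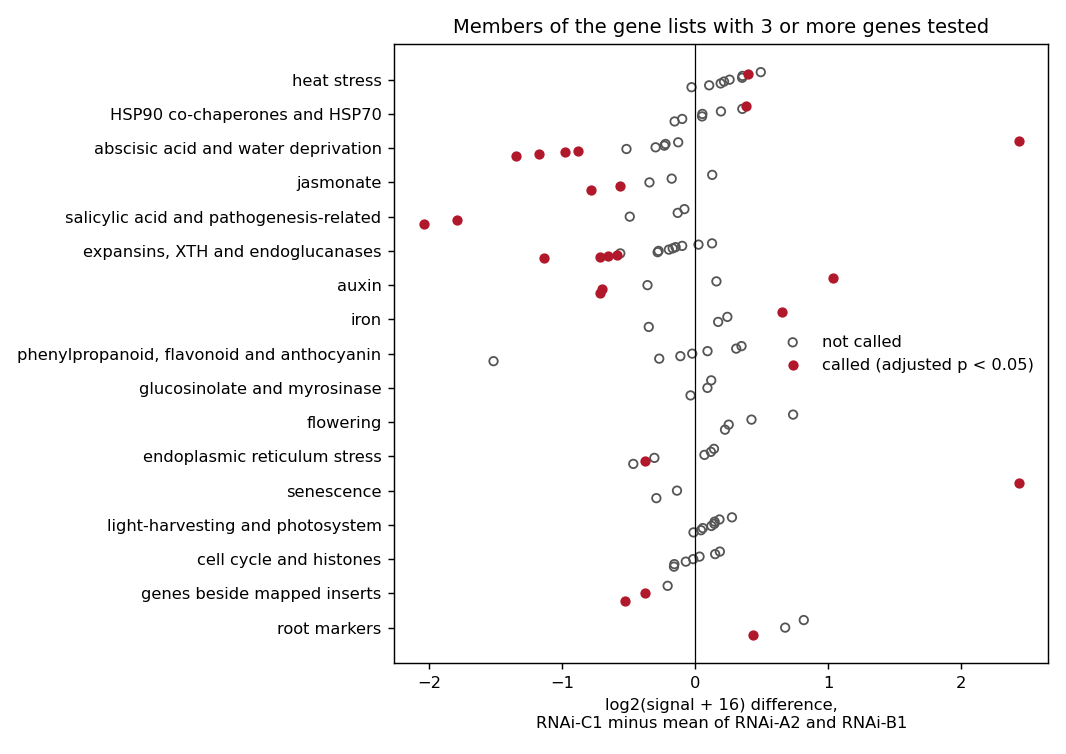
Difference of RNAi-C1 from the mean of RNAi-A2 and RNAi-B1 (x axis, log2 units) for each tested gene of the lists with 3 or more genes tested (rows). Filled points passed an adjusted p under 0.05 and open points did not. Called genes of the abscisic acid, jasmonate, salicylic acid and cell wall lists lie to the left of 0, except *SAG29* at 2.43.

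3 further groups were chosen after their values were seen and are described without a test of the group. Of 12 SWEET sugar transporters, 3 were higher and 1 was lower, beside 4.49% higher and 5.61% lower of all probe sets, with a median of 0.20. The 3 that were higher were dim, and the 1552 dimmest probe sets had a median of 0.26. Beside *SAG29*, *SWEET13* had 157, 116 and 129 in RNAi-C1, against 103 and 77.0 in RNAi-A2 and 94.1, 65.5 and 70.7 in RNAi-B1 (difference 0.60 ± 0.14, adjusted p = 0.037), and *SWEET10* was higher by 0.71 (adjusted p = 0.0468). *SWEET4* had 414, 294 and 306 in RNAi-C1, against 562 and 554 in RNAi-A2 and 474, 535 and 502 in RNAi-B1 (difference -0.64 ± 0.12, adjusted p = 0.0152). The calls of *SWEET13* and *SWEET10* were each lost in 6 of 8 fits without a sample, and that of *SWEET4* in 2 (adjusted p of up to 0.129). Like *SAG29*, *SWEET10* passed the signal filter through its RNAi-C1 mean alone. *SWEET11*, the brightest of the group and a phloem loader, had a difference of -0.03 (adjusted p = 0.837).

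The endoplasmic reticulum body is a store of beta-glucosidases in Brassicaceae that is released on wounding. Of 7 of its genes, 4 were higher and none was lower, beside 4.49% higher and 5.61% lower of all probe sets, with a median of 0.39. The jacalin-related lectin *JAL22* had 979, 1027 and 1054 in RNAi-C1, against 662 and 645 in RNAi-A2 and 515, 484 and 600 in RNAi-B1 (difference 0.78 ± 0.09, adjusted p = 0.00216). *NAI2*, needed to form the bodies, was higher by 0.38 (adjusted p = 0.0206), *JAL33* by 0.59 (adjusted p = 0.0418) and *PYK10*, their main beta-glucosidase, by 0.44 (adjusted p = 0.0406). *PYK10* had 2763, 3372 and 3376 in RNAi-C1, against 2021 and 2215 in RNAi-A2 and 2610, 2296 and 2806 in RNAi-B1, so that RNAi-C1 and RNAi-B1 overlapped. Only the call of *JAL22* held in all 8 fits without a sample, and those of the other 3 reached adjusted p-values of up to 0.12. *NAI1*, the transcription factor for these genes, had a difference of -0.29 (adjusted p = 0.374). *PYK10* is also known as a root gene, and RNA of other tissue as a part of this difference was not tested.

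PRA1 proteins take part in vesicle traffic. Of 10 tested, *PRA8* and *PRA1.B4* were lower and none was higher, with a median of -0.12, beside 4.49% higher and 5.61% lower of all probe sets. *PRA8* had 360, 559 and 508 in RNAi-C1, against 1051 and 999 in RNAi-A2 and 835, 1032 and 899 in RNAi-B1 (difference -1.03 ± 0.15, adjusted p = 0.00465). *PRA1.B4* had 172, 179 and 162 in RNAi-C1, against 306 and 299 in RNAi-A2 and 339, 424 and 495 in RNAi-B1 (difference -0.99 ± 0.12, adjusted p = 0.00258). Both kept their calls in all 8 fits without a sample.

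Genes of the plastid genome tended to be higher in RNAi-C1. Of 67 tested, 64 had a positive difference, with a median of 0.56. Only 4 of the 67 were called higher and none lower, beside 4.49% higher and 5.61% lower of all probe sets. Among 8374 protein-coding genes, of median 0.05, 365 were called higher and 381 lower. The 67 genes were measured in the same 8 samples, so that their signs are not separate observations. *rpl32*, a ribosomal protein gene, had 10620, 9997 and 9776 in RNAi-C1, against 6699 and 7669 in RNAi-A2 and 5615, 6411 and 6148 in RNAi-B1 (difference 0.62 ± 0.09, adjusted p = 0.00465). *rpoC2*, a subunit of the plastid RNA polymerase, had 1735, 1211 and 1649 in RNAi-C1, against 526 and 879 in RNAi-A2 and 843, 945 and 541 in RNAi-B1 (difference 1.06 ± 0.23, adjusted p = 0.0273). The photosystem gene *psaJ* (0.61, adjusted p = 0.0456) and the NADH dehydrogenase gene *ndhC* (0.40, adjusted p = 0.0475) were called as well. Except that of *rpl32*, these calls were lost in 3 to 7 of the 8 fits without a sample, with adjusted p-values of up to 0.133. As a level per sample, the median signal of the 67 genes was 4691, 3976 and 4593 in RNAi-C1, against 2797 and 4441 in RNAi-A2 and 3541, 3688 and 2752 in RNAi-B1. RNAi-A2 2 thus lay within the range of RNAi-C1. The median difference was 0.47 after quantile normalization and 0.50 after median centring.

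Pseudogenes, many of them remains of transposons, also tended to positive differences. Of 88 tested, 81 had a positive difference, with a median of 0.34. Of the 88, 8 were called higher and none lower, beside 4.49% higher and 5.61% lower of all probe sets. Those beyond the 4 named above were AT1G41600, AT1G49370, AT2G12050 and AT2G14770, higher by 0.51 to 0.64 with adjusted p-values of 0.0201 to 0.0341. Of these, AT1G41600, AT2G12050 and AT2G14770 have probe sets that may match related transcripts, and the calls of all 4 were lost in 3 or 6 of the 8 fits without a sample (adjusted p of up to 0.107). Brightness moved with this pattern. Among the 1552 dimmest probe sets tested, with mean signals of up to 101, the median difference was 0.26, and it was 0.02 among the 1551 brightest. Of the 88 pseudogenes, 55 lay among the dimmest and had a median of 0.44, and the other 33 had one of 0.23. Of the called pseudogenes, AT1G41600, AT1G49370, AT2G12050, AT3G42300, AT3G42330 and AT1G43590 passed the signal filter through their RNAi-C1 mean alone. At each called pseudogene but AT1G43590, the highest of the 30 arrays of other lines lay above all RNAi-C1 samples. The part of the filter, background or scaling in these shifts was not tested beyond the alternatives for scaling. Under these alternatives the median of the pseudogenes was 0.25 after quantile normalization and 0.28 after median centring.

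The most extreme probe sets had no gene in the probe table. The one numbered 247094_at had 369, 509 and 465 in RNAi-C1, against 7.29 and 3.98 in RNAi-A2 and 24.8, 16.2 and 5.75 in RNAi-B1 (difference 4.16 ± 0.20, adjusted p = 3.47e-05). The controls were at 26.9 ± 15.1 and 47.9 ± 31.1, and over the 30 arrays of other lines its signal ran from 5.69 to 709, so that other lines reached the level of RNAi-C1. This probe set passed the signal filter through its RNAi-C1 mean alone. Probe set 258183_at was nearly silent in RNAi-C1, with 16.4, 33.8 and 53.5, against 563 and 617 in RNAi-A2 and 599, 528 and 582 in RNAi-B1 (difference -3.63 ± 0.21, adjusted p = 0.000121). The controls were at 587 ± 40.7 and 585 ± 29.9. Over the 30 arrays of other lines the signal of 258183_at ran from 45.0 to 846, with a median of 545. The lowest of them thus lay within the range of RNAi-C1. Probe set 247648_at had 5.90, 6.45 and 4.65 in RNAi-C1, against 241 and 202 in RNAi-A2 and 142, 159 and 180 in RNAi-B1 (difference -3.23 ± 0.10, adjusted p = 7.71e-06), and no array of another line was below 132. These probe sets were chosen after their values were seen.

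Some genes called between RNAi-B1 and RNAi-A2 had 1 of these lines apart and the other near the level of RNAi-C1. *APA1*, a vacuolar aspartic protease, was low in RNAi-B1 alone, with 7756, 10086 and 9464 in RNAi-C1, against 2829, 2581 and 2484 in RNAi-B1 and 7568 and 8236 in RNAi-A2. RNAi-C1 was higher than RNAi-B1 by 1.78 ± 0.12 (adjusted p = 0.000218), with a difference of 0.20 (adjusted p = 0.434) from RNAi-A2, and RNAi-B1 differed from RNAi-A2 by -1.58 ± 0.13 (adjusted p = 0.00574). AT5G01740 and AT5G20790 were low in RNAi-A2 alone. AT5G01740 had 526, 509 and 652 in RNAi-C1, against 553, 508 and 514 in RNAi-B1 and 150 and 207 in RNAi-A2 (RNAi-B1 against RNAi-A2, 1.49 ± 0.16, adjusted p = 0.0108). AT5G20790 had 454, 616 and 566 in RNAi-C1, against 439, 377 and 415 in RNAi-B1 and 169 and 171 in RNAi-A2 (RNAi-B1 against RNAi-A2, 1.19 ± 0.14, adjusted p = 0.0141). AT4G27654 was high in RNAi-A2 alone, with 116, 96.0 and 62.8 in RNAi-C1, against 91.2, 73.2 and 85.6 in RNAi-B1 and 334 and 333 in RNAi-A2 (RNAi-B1 against RNAi-A2, -1.82 ± 0.20, adjusted p = 0.0129). AT1G50040 was low in RNAi-A2 (1.88, adjusted p = 0.0129), the subtilase gene *SBT3.3* was high in RNAi-B1 (1.15, adjusted p = 0.0141), and AT2G41730 (-1.28, adjusted p = 0.00574) and AT2G04050 (-1.03, adjusted p = 0.0198) were lower in RNAi-B1 than in RNAi-A2. The probe set of AT2G41730 may match related transcripts. Of the 45 calls, 1 was left without RNAi-A2 1, 0 without RNAi-A2 2, and 9 to 14 without a sample of RNAi-B1, so that these calls rest on the single samples of both lines.

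The gene beside the insertion of RNAi-B1 was among them. AT1G42980, an actin-binding protein gene, had 34.4, 48.6 and 43.8 in RNAi-C1, against 125, 98.7 and 130 in RNAi-B1 and 32.3 and 40.3 in RNAi-A2. It was high in RNAi-B1 alone, with a difference of 1.35 ± 0.15 (adjusted p = 0.0141) between RNAi-B1 and RNAi-A2 and of -1.2 ± 0.14 (adjusted p = 0.00245) between RNAi-C1 and RNAi-B1. AT1G42980 also passed the signal filter through its RNAi-B1 mean alone. The controls were at 52.1 ± 12 and 37.2 ± 10.7. *BZIP60*, the next gene in the table, had 1730, 1756 and 1711 in RNAi-C1, against 2486, 2565 and 2481 in RNAi-B1 and 1952 and 2078 in RNAi-A2. It was lower in RNAi-C1 than in RNAi-B1 by a difference of -0.53 (adjusted p = 0.00818), and its difference from RNAi-A2 was -0.22 (adjusted p = 0.206). *ZAP1*, which lies near the insertion of RNAi-A2, had a difference of -0.21 (adjusted p = 0.172) between RNAi-C1 and the mean of the lines. Effects of an insertion on other genes and effects of a hairpin cannot be told apart with a single line of each.

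**Figure D5:**
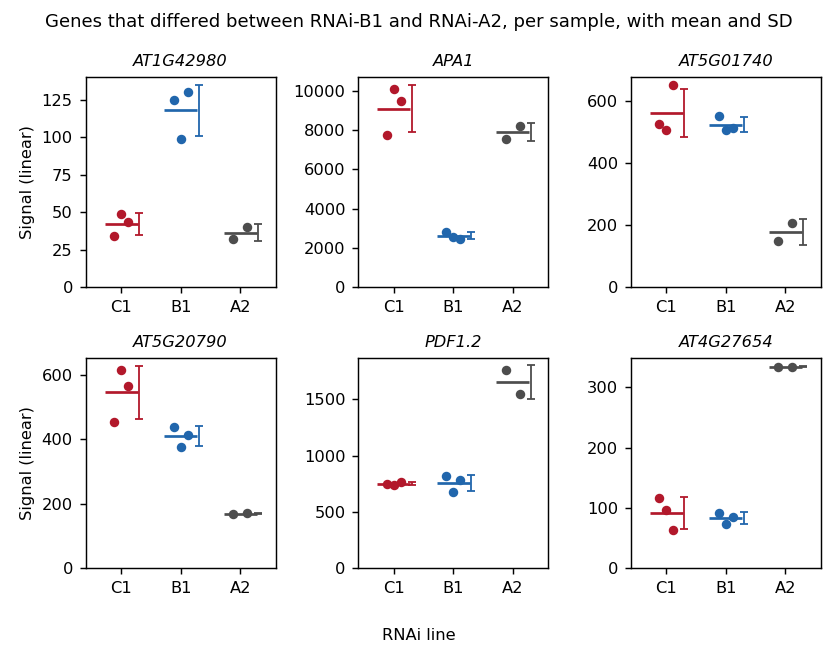
Signal (linear units) of genes that differed between RNAi-B1 and RNAi-A2, in each sample of RNAi-C1 (C1), RNAi-B1 (B1) and RNAi-A2 (A2), with the mean (line) and SD (bar). AT1G42980 is high and *APA1* low in RNAi-B1 alone, while AT5G01740 and AT5G20790 are low and *PDF1.2* and AT4G27654 high in RNAi-A2 alone.

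The HSP90-TDNA lines, in which an HSP90 gene is interrupted by a T-DNA, share no sample with these lines and were compared with Col-0 in 12 samples. Of the probe sets lower in RNAi-C1, 841 could be followed there, and the median difference of the HSP90-TDNA lines from Col-0 was 0.13 (0.13 to 0.15 in the separate lines, which share the Col-0 samples), with 71.2% positive. Of those higher in RNAi-C1, 636 could be followed, with a median of -0.04 and 38.8% positive. Over all 14921 probe sets the median was -0.02, with 44.6% positive. These medians are a description with no test. The median was 0.20 over the lower probe sets that differed by at least 1.5-fold. The HSP90-TDNA lines themselves had 0 probe sets higher and 1 lower than Col-0 at an adjusted p under 0.05 in limma, with 827 at an unadjusted p under 0.05.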

How the data were processed

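The deposited intensity values are linear MAS5 signals that the authors scaled array by array. The version of MAS5 is not given in the sources used here, and the Methods name PLIER, but the trimmed mean was 499.8 in each of the 8 arrays. Array control probe sets (64) were left out, and 16 was added before log2. A probe set was tested if 1 or more line means exceeded a signal of 85.8, the 35th percentile. A dim gene could therefore be tested through the 1 line in which it was high. The log2 values were fitted in R 4.3.3 with limma 3.58.1, with 1 mean per line, 5 residual degrees of freedom, a prior worth 3.36 more, and p-values were adjusted by Benjamini-Hochberg. The Methods state 3 samples for each line, but RNAi-A2 has 2 here. The samples are separate pools, and p-values measure the spread between them. Deviations of same-numbered samples correlated over 0.1 in 3 of 7 pairs. Whether the numbers pair the samples is not known, and the main fit has no term for them. Genes were named for probe sets with 1 gene in the probe table (13513). Members and lists were chosen with earlier results of these data known. Named genes are up to 15 called in each direction with no overlap between RNAi-C1 and the other samples, up to 4 of each list, up to 5 in each direction between RNAi-B1 and RNAi-A2, and insert neighbours. Roles of genes known by locus alone come from GO annotation. In simulated data for RNAi-C1 against the mean of RNAi-A2 and RNAi-B1 on 15511 probe sets, 56% of changes of 1.5-fold and 90% of changes of 2-fold were called. Alternatives were quantile normalization, median centring, an offset of 4 or of 64, the filter at the 50th percentile or none, a fit with the control lines, the replicate number as a block, equal weights, the methods' t-test, a 1.5-fold minimum, a trended prior, and each sample left out. No coordinates or sequences are given.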

Additional observations from a re-analysis of the deposited data

Results flagged for a closer look

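Leaving aside the genes that were named only for the size of their difference between RNAi-B1 and RNAi-A2, 5 genes of the report that were called in RNAi-C1 against at least 1 of these lines also differed between RNAi-B1 and RNAi-A2 in the same limma model, so that the difference of RNAi-C1 depends on the line it is set against. The difference between RNAi-B1 and RNAi-A2 was 0.80 log2 units for AT2G41090 (adjusted p = 0.0368), -0.73 for *PUB19* (adjusted p = 0.0266), -0.75 for *PDF1.2b* (adjusted p = 0.0231), -1.11 for *PDF1.2* (adjusted p = 0.0102) and 1.35 for AT1G42980 (adjusted p = 0.0141). The first 3 were lower in RNAi-C1 than in both lines, *PDF1.2* was lower than in RNAi-A2, and AT1G42980 was lower than in RNAi-B1.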

How the results depend on the processing

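With 2 or 3 samples a line, the number of probe sets called moved with the setting. Against the mean of RNAi-A2 and RNAi-B1, 734 were called with no filter, 463 by the methods' t-test (a Welch test per probe set) and 695 with a required change of at least 1.5-fold, against 1566 as reported. Against RNAi-A2 the count was 424 with no filter, 0 by the methods' t-test (3378 at an unadjusted p under 0.05 in limma) and 1388 with a trended prior, against 913 as reported. Against RNAi-B1 it was 449 with no filter, 24 by the methods' t-test and 626 with at least 1.5-fold, against 1144 as reported. For RNAi-B1 against RNAi-A2 it was 7 with no filter, 79 with the 50th percentile, 96 in the fit with the control lines, 0 by the methods' t-test (1454 at an unadjusted p under 0.05 in limma) and 118 with a trended prior, against 45 as reported. For probe sets called against both lines it was 244 with no filter, 0 by the methods' t-test, 338 with at least 1.5-fold and 842 with a trended prior. The gene lists held 5 calls by the methods' t-test. Over all of these the cause was not tested. Same-numbered samples had correlations of their deviations from -0.02 to 0.18 in 7 pairs, 3 of them over 0.1. Whether the numbers pair the samples was not settled by this. With the replicate number as a block, the counts were 1258 against the mean of the lines, 535 against RNAi-A2, 0 for RNAi-B1 against RNAi-A2 and 352 against both lines. Leaving out each sample in turn gave 868 to 1548 calls against the mean of the lines, 213 to 838 against RNAi-A2, 376 to 846 against RNAi-B1, 0 to 47 for RNAi-B1 against RNAi-A2, 173 to 429 against both lines and 18 to 23 in the gene lists. The controls lay nearer RNAi-C1 at 37.9% of the higher probe sets with no filter and 23.7% with the block, and at 26.4% to 39.9% without a sample (lower probe sets, 42.6% to 45.7%). The HSP90-TDNA median over the lower probe sets was 0.20 with no filter and with at least 1.5-fold, 0.12 with the 50th percentile, 0.11 in the fit with the control lines, 0.16 with the block, 0.10 with a trended prior and 0.13 to 0.19 without a sample (higher probe sets, -0.06 to -0.02). Of 80 called differences of named genes, none changed sign in the 1566 values refitted under an alternative, and 377 of these values lost the call. Signs turned at genes that were not called: *PRK* was at -0.110 after quantile normalization, -0.0526 after median centring and -0.0599 to 0.0772 without a sample, *LHCB4.1* and *PSAE-1* were at -0.118 and -0.0622 after quantile normalization, and without a sample *UGT74B1* was at -0.0998 to 0.0681 and *GI* at -0.104 to 0.0326. Signals near background limit the dim genes.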
